A study of Rattus norvegicus with 30 samples.

Results

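Aggrecan, its partners and a group of other matrix genes known best from cartilage were followed in rat plantaris tendons, uninjured or cut and sutured. The 8 genes are Acan, Sox9, Hapln1, Clec3a, Coch, Cilp, Cilp2 and Prg4. They were taken by name from the 13124 genes listed in the count table, where all 8 were found. The animals were 3-month-old male Sprague Dawley rats. Repaired tendons came from rats that had a full tenotomy and suture repair of the plantaris tendon and were gavaged 2 times a day with 0 (vehicle), 2 or 6 mg/kg of GSK2894631A, which blocks the prostaglandin-making enzyme HPGDS, until 7 or 21 days after surgery. The labels give 5, 4 and 3 tendons at 7 days (7D) for 0, 2 and 6 mg/kg, and 5 tendons for each dose at 21 days (21D). The 3 control tendons came from rats with neither surgery nor gavage, so injury, suture and gavage cannot be told apart in a comparison with control. One tendon was sequenced per rat, cut between the muscle junction and the heel bone. These are bulk RNA values, in which fewer cells of a type and less RNA per cell cannot be told apart.

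Cartilage resists compression because aggrecan, a proteoglycan loaded with chondroitin sulfate, is held on hyaluronan by link protein and traps water inside a collagen network. SOX9 is the transcription factor that drives cartilage cells and switches on many of these matrix genes. Tendons make a small amount of the same matrix, mainly where they are pressed against bone, and a lubricant, PRG4, at the surfaces where they glide.

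Counts on the genes listed summed to 12405741 to 49909374 per tendon, so that 3 counts corresponded to 0.0562 to 0.245 CPM (counts relative to library size), a floor that covers counting error only. All levels below are CPM scaled by the TMM method of edgeR, with factors of 0.599 to 0.788 in control and 0.950 to 1.095 in repaired tendons. A gene was called where the Benjamini-Hochberg adjusted p of the edgeR quasi-likelihood fit was below 0.05 over the 12558 genes whose mean reached 3 CPM in 1 or more groups. Of the 8 genes 7 passed that filter. Hapln1 missed it, and its tests come from a fit to all 13124 genes. A list of 24 measured skeletal muscle genes took 20.7 to 29.2% of the counts in control tendons, up to 1.40% in 7D tendons and 0.0887 to 10.3% in 21D tendons. Muscle share and injury therefore cannot be told apart in any comparison with control. Control replicate 2 had the highest level of 7 of the 8 genes, all but Sox9, and control replicate 4 the lowest level of 5. Of the tendon genes, Tnmd (tenomodulin) had 509 to 12797 counts per tendon and Scx 272 to 3157, but Mkx only 3 to 199. Against control, Tnmd was called lower in 4 of the 6 repaired groups, Mkx in all 6 and Scx in none. Mkx passed the filter only through control. The cartilage collagen gene Col2a1 had only 3 to 343 counts per tendon, and its group means ran from 1.41 to 7.30 CPM.

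**Figure D1:**
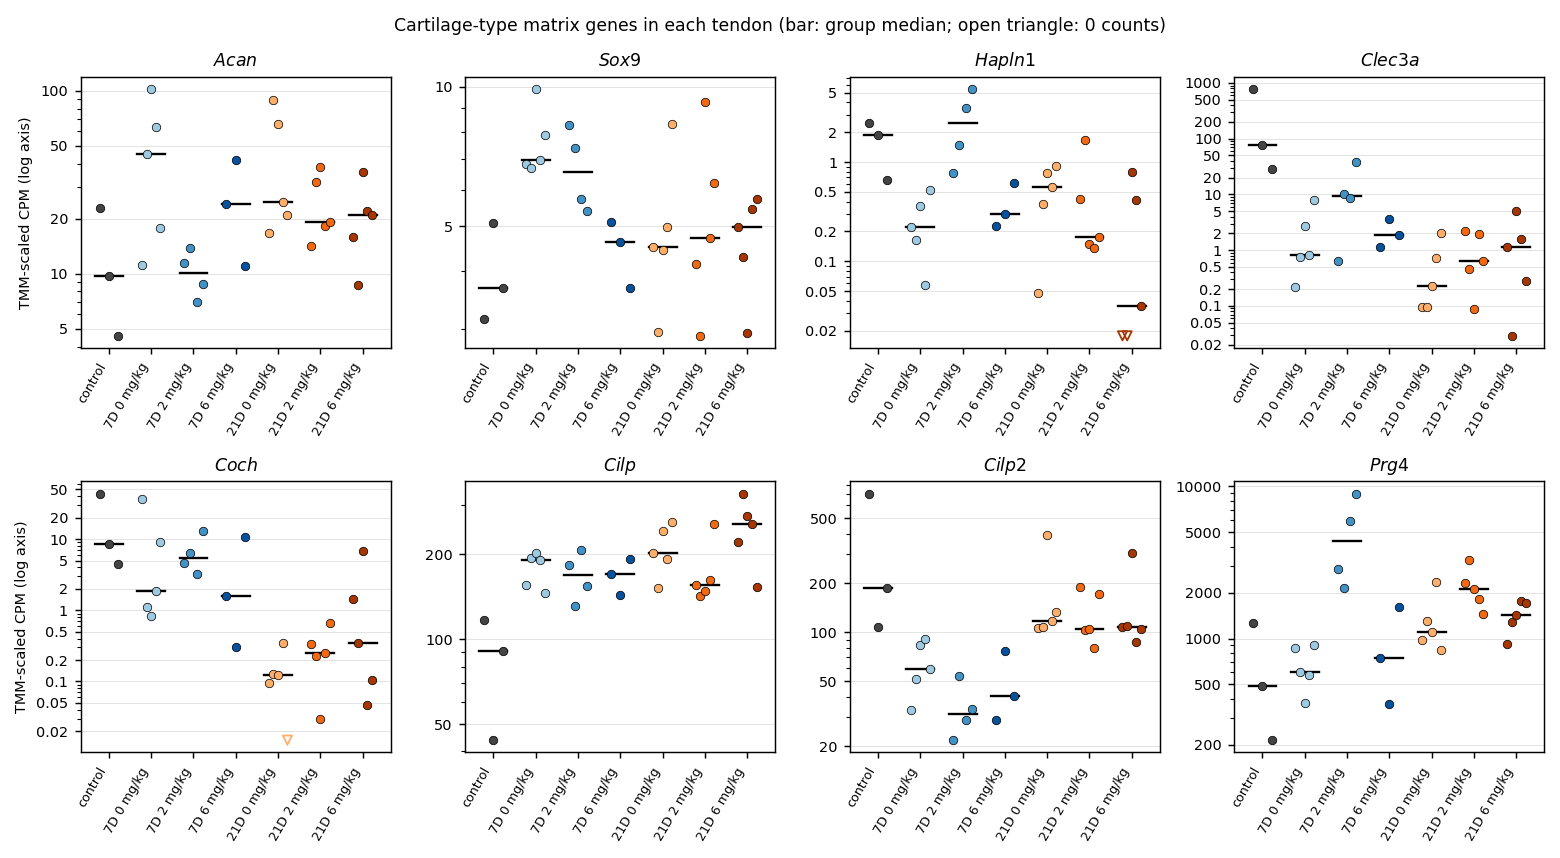
Level of each of the 8 genes in every tendon, as TMM-scaled CPM on a log axis, by group; bars are group medians and open triangles are tendons with 0 counts. Cilp lay above all 3 control tendons in all 27 repaired tendons, Clec3a below all 3 in 26 of 27, and Prg4 reached 2156 to 8950.3 CPM in the 7D 2 mg/kg tendons.

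Compared to control tendons, Cilp rose and Clec3a fell in all 6 repaired groups, and the other genes were called in some groups only. In 7D 0 mg/kg tendons 3 of the 7 genes tested were higher (Acan, Sox9 and Cilp) and 2 were lower (Clec3a and Cilp2), where 35.8% and 35.6% of all genes tested were called higher and lower. At 7D 2 mg/kg 3 were higher (Sox9, Cilp and Prg4) and the same 2 lower, against 35.8% and 34.0% of all genes. In 7D 6 mg/kg tendons 1 was higher (Cilp) and 2 lower (Clec3a and Cilp2), against 34.1% and 33.8%. In 21D 0 mg/kg tendons 2 were higher (Acan and Cilp) and 2 lower (Clec3a and Coch), against 32.2% and 33.7%. In 21D 2 mg/kg tendons 2 were higher (Cilp and Prg4) and 3 lower (Clec3a, Coch and Cilp2), against 33.8% and 35.3%. In 21D 6 mg/kg tendons 1 was higher (Cilp) and 3 lower (the same 3), against 30.8% and 33.3%. Counts of 1 to 3 among 7 genes are near these background shares, so the number of calls is no result about these genes. Of all calls at 7D 0 mg/kg 50.1% were higher, and 75.6% were when libraries were scaled by their size alone, which moved the median log2 fold change of all genes from 0.05 to 0.64. The 6 comparisons share the same 3 control tendons.

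**Figure D2:**
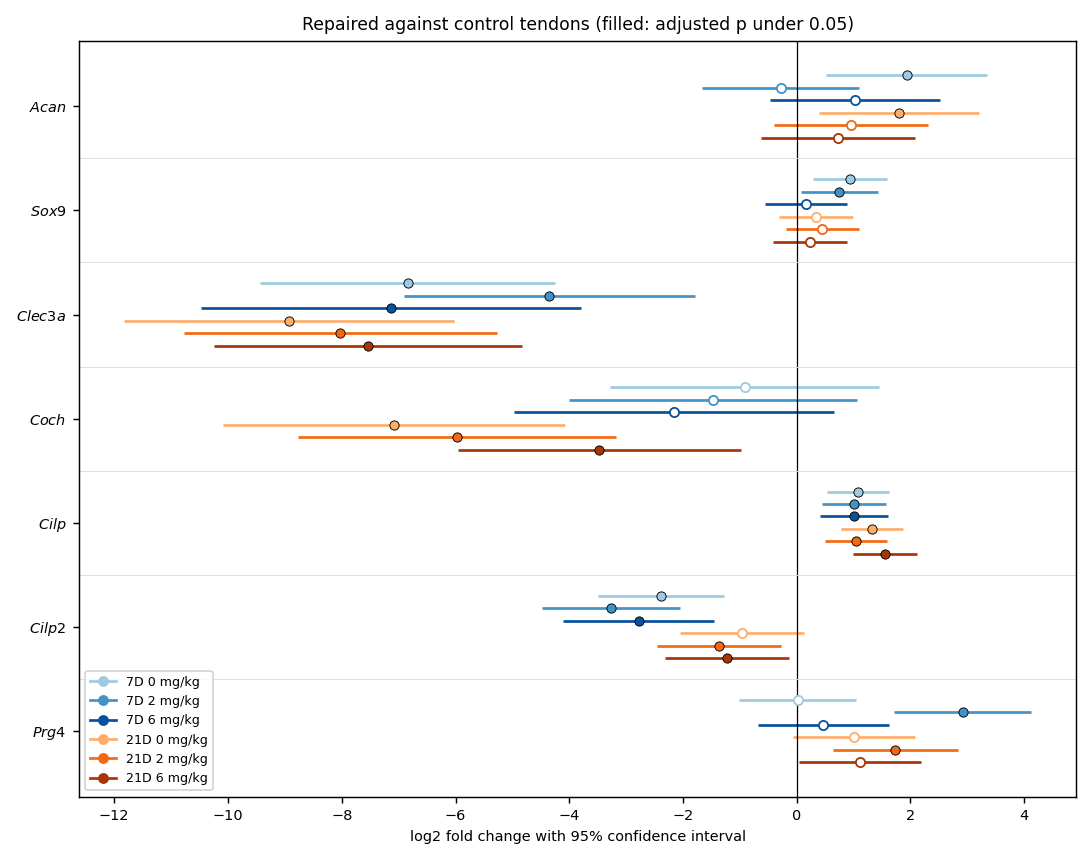
Log2 fold change of the 7 genes tested, repaired against control tendons, with 95% confidence intervals; filled points have an adjusted p under 0.05. The intervals of Cilp lie above 0 and those of Clec3a below 0 in all 6 groups, from 1.01 to 1.55 and from -8.93 to -4.35 at their centres, while Coch is below 0 in the 21D groups.

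Sox9 (ENSRNOG00000002607, chromosome 10 of rn6), the transcription factor of the group, had 45 to 353 counts per tendon. Control tendons had 3.16, 3.68 and 5.09 CPM and 7D 0 mg/kg tendons 6.69, 6.83, 6.96, 7.89 and 9.88 CPM. All 5 of the latter lay above all controls. The log2 fold change was 0.94 (SE 0.32, adjusted p = 0.011), but the call was lost without control replicate 2 (adjusted p = 0.0854) or control replicate 4 (adjusted p = 0.0565). The 7D 2 mg/kg tendons, at 5.40, 5.74, 7.37 and 8.29 CPM, were also all above control (log2 fold change 0.75, SE 0.33, adjusted p = 0.0453). That call was at the edge of the threshold and was lost without any 1 of 7 tendons (adjusted p of 0.0501 to 0.208), without the counts of muscle genes in the scaling (adjusted p = 0.0634), with the RLE scaling (adjusted p = 0.0562), with the muscle share as a covariate (adjusted p = 0.142) or in a fit of only the 2 groups (adjusted p = 0.0754). The 7 tendons were control replicates 2 and 4, 7D 0 mg/kg replicate 5, 7D 2 mg/kg replicates 2 and 3, 7D 6 mg/kg replicate 4 and 21D 0 mg/kg replicate 4. In 7D 6 mg/kg tendons, with 3.68, 4.62 and 5.11 CPM, and in the 21D groups, with 2.90 to 9.27 CPM, Sox9 overlapped the controls and was not called.

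Acan (ENSRNOG00000028992, chromosome 1), the gene of aggrecan, varied widely among tendons of a group. Control tendons had 4.57, 9.74 and 23.0 CPM. The 7D 0 mg/kg tendons had 11.2, 17.8, 45.0, 63.8 and 102 CPM and the 21D 0 mg/kg tendons 16.6, 21.0, 24.7, 66.3 and 89.5 CPM. In the former 3 tendons and in the latter 2 lay well above the controls, and the others were within or near the control range. The log2 fold changes were 1.93 (SE 0.69, adjusted p = 0.015) at 7 days and 1.80 (SE 0.69, adjusted p = 0.024) at 21 days. The first was lost without control replicate 3, control replicate 4 or 7D 0 mg/kg replicate 3 (adjusted p = 0.0537, 0.0889 and 0.0543), and the second without control replicate 3, control replicate 4 or 21D 0 mg/kg replicate 2 (adjusted p = 0.0749, 0.126 and 0.0779). Without control replicate 2 they were 2.66 and 2.51 and were called. With the muscle share as a covariate the changes were 0.44 and 0.61 (adjusted p = 0.661 and 0.471). In fits of only the 2 groups compared they were not called (adjusted p = 0.0638 and 0.0713). In the treated groups Acan was not called against control in the fit without a replicate block. The means were 10.3 ± 2.98 CPM (SD, n = 4) at 7D 2 mg/kg, 25.7 ± 15.6 (n = 3) at 7D 6 mg/kg, 24.4 ± 10.2 (n = 5) at 21D 2 mg/kg and 20.7 ± 10.1 (n = 5) at 21D 6 mg/kg, with 12.4 ± 9.52 (n = 3) in control. The biological coefficient of variation of Acan was 0.584, higher than that of 94.0% of the genes tested, whose median was 0.183.

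Hapln1 (ENSRNOG00000032002, chromosome 2) encodes link protein, which locks aggrecan to hyaluronan. It was close to the limit of detection, with 0 to 84 counts per tendon. Control tendons had 0.654, 1.88 and 2.45 CPM and 7D 0 mg/kg tendons 0.0580, 0.164, 0.219, 0.364 and 0.521 CPM, with no overlap. The 7D 2 mg/kg tendons reached higher than the other repaired groups, with 0.774, 1.49, 3.50 and 5.40 CPM, against 0.225 to 0.608 CPM at 7D 6 mg/kg and 0 to 1.67 CPM at 21 days. In the fit without a filter, Hapln1 was lower than control at 7D 0 mg/kg (log2 fold change -2.62, SE 0.95, adjusted p = 0.0172) and at 21D 6 mg/kg (-2.74, SE 0.98, adjusted p = 0.0172). At 7D 2 mg/kg the change against control was 0.72 with a 95% interval of -1.28 to 2.73. Acan and Hapln1 did not run in parallel over the groups: in 7D 2 mg/kg tendons Acan had its lowest of the 7 group means and Hapln1 its highest (2.79 ± 2.09 CPM, SD, n = 4).

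Clec3a (ENSRNOG00000012238, chromosome 19) encodes a secreted C-type lectin found in cartilage. Control tendons differed 26.4-fold among themselves, with 28.9, 76.3 and 765 CPM. The 7D tendons had 0.219, 0.740, 0.812, 2.69 and 8.06 CPM with 0 mg/kg, 0.626, 8.47, 10.3 and 38.3 with 2 mg/kg and 1.16, 1.86 and 3.63 with 6 mg/kg. At 21 days the levels were 0.0944, 0.0956, 0.229, 0.731 and 2.03 CPM with 0 mg/kg, 0.0897, 0.460, 0.628, 1.99 and 2.25 with 2 mg/kg and 0.0290, 0.283, 1.14, 1.59 and 4.97 with 6 mg/kg. Only 1 of the 27 repaired tendons, 7D 2 mg/kg replicate 5, exceeded the lowest control. Clec3a fell in all 6 groups, with log2 fold changes of -6.84 (SE 1.26), -4.35 (SE 1.24) and -7.13 (SE 1.63) at 7 days and -8.93 (SE 1.41), -8.03 (SE 1.34) and -7.54 (SE 1.31) at 21 days, in order of dose, and adjusted p-values of 6.65e-06 to 0.00334. Without control replicate 2, which held the 765 CPM, the fall at 7D 2 mg/kg was -1.93 (adjusted p = 0.181; with the muscle share as a covariate 0.136) and the other 5 kept their call at -6.48 to -4.45. The highest repaired tendons weighed the other way: without 7D 0 mg/kg replicate 5, 7D 2 mg/kg replicate 5, 21D 0 mg/kg replicate 5 or 21D 6 mg/kg replicate 3, the fall of that group was -8.02, -5.49, -10.06 and -8.54.

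Coch (ENSRNOG00000005286, chromosome 6) encodes cochlin, a matrix protein best known from the inner ear. Control tendons had 4.41, 8.58 and 43.5 CPM. At 7 days its levels overlapped them, with 0.839, 1.10, 1.86, 9.21 and 37.0 CPM with 0 mg/kg, 3.22, 4.64, 6.31 and 13.1 with 2 mg/kg and 0.303, 1.61 and 10.6 with 6 mg/kg. At 21 days it was near the floor in most tendons, with 0, 0.0956, 0.125, 0.126 and 0.348 CPM with 0 mg/kg (0 to 10 counts), 0.0299, 0.230, 0.251, 0.337 and 0.662 with 2 mg/kg (1 to 19 counts) and 0.0460, 0.106, 0.348, 1.44 and 6.80 with 6 mg/kg (2 to 164 counts). Only 1 of the 15 21D tendons, 21D 6 mg/kg replicate 3, lay within the control range. The changes against control were -0.91 (-3.28 to 1.45), -1.47 (-4.00 to 1.05) and -2.16 (-4.97 to 0.66, 95% intervals) at 7D 0, 2 and 6 mg/kg, none of them called. At 21 days they were -7.08 (SE 1.46, adjusted p = 0.000176), -5.97 (SE 1.36, adjusted p = 0.000419) and -3.47 (SE 1.21, adjusted p = 0.0146). Without control replicate 2 the 3 falls were -5.60, -4.52 and -1.997, and the last was no longer called (adjusted p = 0.181), nor was it in a fit of only the 2 groups (adjusted p = 0.0587). Without 21D 6 mg/kg replicate 3 the last was -5.38, and without 7D 6 mg/kg replicate 5 the 7D 6 mg/kg change was -4.16 (adjusted p = 0.0404). Clec3a and Coch had the widest spread of the group, each with a biological coefficient of variation above that of 99.7% of genes.

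Promoters of 6 of the 8 genes were found in the RefSeq table for GRCr8. Those of Coch, Cilp, Cilp2 and Prg4, the genes with the clearest changes in time, between paralogs and with dose, are printed as the 250 bases before the annotated start, 5′ to 3′ on the gene's strand. Capitals mark matches, on either strand, to TATAAA, known as the TATA box, to CCAAT, to GGGCGG, known as the GC box, to ACAAT, the core of SOX sites, or to an AP-1 site, which reads TGA, any 1 base and TCA. These were found in 12.9%, 34.0%, 30.5%, 30.02% and 6.34% of all 33469 promoters of that length. A match is a description of letters and not a bound site. The Coch promoter is at chr6:74766297-74766546 on the + strand of GRCr8. It is GC-rich (74% G and C, with a median of 51.2% over all promoters) and holds 2 GC boxes and a TATA box on the opposite strand, 42 bases before the start.
Coch: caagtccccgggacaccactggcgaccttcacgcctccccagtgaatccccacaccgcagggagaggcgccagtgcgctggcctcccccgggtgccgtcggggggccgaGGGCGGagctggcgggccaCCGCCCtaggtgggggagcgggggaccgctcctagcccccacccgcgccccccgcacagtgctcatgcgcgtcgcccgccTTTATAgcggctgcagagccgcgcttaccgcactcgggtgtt

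Cilp (ENSRNOG00000029911, chromosome 8) and Cilp2 (ENSRNOG00000020622, chromosome 16) are paralogs that encode cartilage intermediate layer proteins, and at 7 days they moved in opposite directions. Cilp rose in all 6 groups. Control tendons had 43.9, 91.0 and 117 CPM. The 7D tendons had 146, 156, 191, 194 and 202 CPM with 0 mg/kg, 131, 155, 184 and 208 with 2 mg/kg and 144, 169.9 and 193 with 6 mg/kg. The 21D tendons had 153, 193, 202, 242 and 261 CPM with 0 mg/kg, 142, 148, 156, 162 and 256 with 2 mg/kg and 153, 222, 256, 273 and 328 with 6 mg/kg. All 27 repaired tendons were above the highest control. The log2 fold changes were 1.08 (SE 0.27), 1.01 (SE 0.27) and 1.01 (SE 0.29) at 7 days and 1.32 (SE 0.27), 1.04 (SE 0.27) and 1.55 (SE 0.27) at 21 days, with adjusted p-values of 2.71e-05 to 0.00348. All 6 calls held without any 1 tendon (adjusted p of at most 0.0292), and in a fit of only the 7D 6 mg/kg and control tendons the call was just missed (adjusted p = 0.0506).

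Cilp2 fell at 7 days. Control tendons had 107, 186 and 707 CPM. The 7D tendons had 33.1, 51.8, 59.8, 83.8 and 90.3 CPM with 0 mg/kg, 21.7, 28.9, 33.8 and 54.2 with 2 mg/kg and 29.1, 40.4 and 76.6 with 6 mg/kg, all below the lowest control. The log2 fold changes at 7 days were -2.39 (SE 0.53, adjusted p = 0.000327), -3.26 (SE 0.59, adjusted p = 3.12e-05) and -2.78 (SE 0.65, adjusted p = 0.000551). At 21 days Cilp2 overlapped the controls, with 106, 108, 117, 132 and 393 CPM with 0 mg/kg, 80.2, 103, 104, 172 and 190.1 with 2 mg/kg and 87.1, 105, 108, 109 and 305 with 6 mg/kg. The changes against control were -0.96 (adjusted p = 0.112), -1.36 (adjusted p = 0.0256) and -1.22 (adjusted p = 0.0463). All 6 changes depended on control replicate 2, at 707 CPM. Without it those at 7 days were -1.27, -2.14 and -1.65 and still called, and those at 21 days were 0.16, -0.25 and -0.10 (adjusted p = 0.81, 0.698 and 0.881). The 21D 0 mg/kg change was called without control replicate 3 (adjusted p = 0.0352) or 21D 0 mg/kg replicate 3 (adjusted p = 0.0131). The 21D 2 mg/kg call was also lost without 21D 2 mg/kg replicate 2 or 4 (adjusted p = 0.0504 and 0.0579), and the 21D 6 mg/kg call was lost in 13 of the 30 fits that left out 1 tendon. With library size only, limma or only the 2 groups compared, neither was called (adjusted p = 0.148, 0.0978 and 0.0639 for the former, and 0.221, 0.119 and 0.129 for the latter), and the latter was also lost without a filter and with the muscle share as a covariate (adjusted p = 0.0504 and 0.067).

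The ratio of Cilp to Cilp2 counts within a tendon does not depend on how libraries are scaled. Its absolute size also reflects the lengths of the transcripts, so it is compared between tendons only. The ratio was 0.166, 0.408 and 0.490 in control tendons, 1.88 to 8.46 in the 12 7D tendons and 0.617 to 3.01 in the 15 21D tendons. Every repaired tendon had a higher ratio than every control tendon. The medians were 2.44, 5.89 and 4.77 at 7D 0, 2 and 6 mg/kg and 1.66, 1.42 and 2.06 at 21D 0, 2 and 6 mg/kg, and the 7D and 21D ranges overlapped. The promoters of the paralogs differ in composition: that of Cilp, at chr8:74672198-74672447 on the + strand of GRCr8, has 52.0% G and C and no match to the 5 motifs, and that of Cilp2, at chr16:19573857-19574106 on the + strand, has 64.8% and 2 GC boxes.
Cilp: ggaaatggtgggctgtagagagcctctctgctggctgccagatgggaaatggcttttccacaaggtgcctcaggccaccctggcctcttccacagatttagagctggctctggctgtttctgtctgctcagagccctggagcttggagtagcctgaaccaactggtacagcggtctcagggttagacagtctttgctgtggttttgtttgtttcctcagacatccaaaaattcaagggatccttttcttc
Cilp2: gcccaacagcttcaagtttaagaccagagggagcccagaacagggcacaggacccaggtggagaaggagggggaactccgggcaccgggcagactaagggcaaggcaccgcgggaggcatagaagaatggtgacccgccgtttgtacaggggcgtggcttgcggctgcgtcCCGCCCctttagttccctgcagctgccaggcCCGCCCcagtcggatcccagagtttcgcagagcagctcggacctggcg

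**Figure D3:**
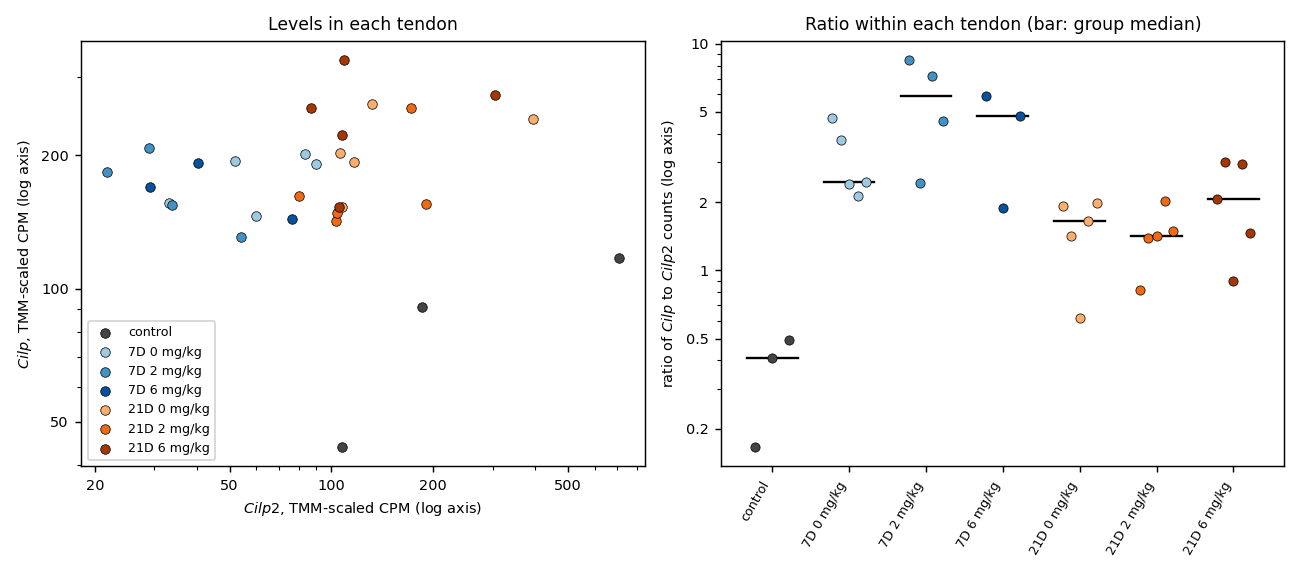
Cilp against Cilp2 in each tendon as TMM-scaled CPM on log axes (left), and the ratio of Cilp to Cilp2 counts in each tendon on a log axis with group medians as bars (right). The 3 control tendons have ratios of 0.166 to 0.490, below all 27 repaired tendons, whose ratios run from 0.617 to 8.46.

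Prg4 (ENSRNOG00000002385, chromosome 13) encodes lubricin, the boundary lubricant of joint and tendon surfaces, and it was the 1 gene of the 7 tested that differed between doses. Control tendons had 215, 490 and 1268 CPM. The 7D tendons had 374, 576, 604, 869.9 and 901 CPM with 0 mg/kg, 2156, 2848, 5947 and 8950.3 with 2 mg/kg and 369.5, 743 and 1607 with 6 mg/kg. All 4 tendons at 2 mg/kg were above all tendons of the other 2 doses and of control, and the 0 and 6 mg/kg tendons overlapped. The means were 665 ± 220.1 CPM (SD, n = 5), 4975 ± 3121 (n = 4) and 907 ± 635 (n = 3). Across the 3 doses at 7 days the adjusted p was 0.000637, and Prg4 was 1 of 7 genes called, where 2.05% of all genes were. The log2 fold change of 2 against 0 mg/kg was 2.90 (SE 0.48, adjusted p = 0.0013), again 1 of 7 called in a comparison with 0.908% of all genes higher and 1.45% lower. Both calls held under every alternative run (adjusted p of at most 0.00471 across doses and 0.0158 for the pair) and without any 1 tendon (at most 0.00789 and 0.0115).

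The higher dose did not give a higher level. At 6 mg/kg Prg4 differed from 0 mg/kg by 0.45 (95% interval -0.57 to 1.46, adjusted p = 0.998), and from 2 mg/kg by -2.46 (95% interval -3.63 to -1.28, adjusted p = 0.158). The latter was called by DESeq2 (adjusted p = 0.00284). At 21 days Prg4 was 839, 981, 1102, 1313 and 2369.6 CPM with 0 mg/kg, 1454, 1833, 2106, 2302 and 3263 with 2 mg/kg and 917, 1278, 1421, 1720.4 and 1775 with 6 mg/kg. The 3 doses overlapped and were not called as different (adjusted p = 0.605). The change of 2 against 0 mg/kg at 21 days was 0.73 (95% interval -0.17 to 1.63). The test of whether dose effects differed between the 2 times was not passed (interaction, adjusted p = 0.306), so the larger difference at 7 days is not shown to be particular to that time.

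Compared to control, Prg4 was higher at 7D 2 mg/kg (log2 fold change 2.92, SE 0.58, adjusted p = 0.000102) and at 21D 2 mg/kg (1.74, SE 0.54, adjusted p = 0.00606). Without control replicate 2 these were 3.77 and 2.56. With the muscle share as a covariate the first was 2.28 (adjusted p = 0.168), and without control replicate 4 the second was 1.26 (adjusted p = 0.0541). The changes at 21D 0 and 6 mg/kg were 1.01 and 1.11 and were not called (adjusted p = 0.0904 and 0.0644), but both were without control replicate 2 (1.85 and 1.95, adjusted p = 0.00779 and 0.00584), and the one at 6 mg/kg also without 21D 6 mg/kg replicate 1 (adjusted p = 0.0499). Both were also called with library size only (adjusted p = 0.0154 and 0.0133) and by limma (adjusted p = 0.0289 and 0.0146), and the one at 6 mg/kg by DESeq2 (adjusted p = 0.0409). At 7D 0 mg/kg the change was 0.02 (95% interval -1.01 to 1.05). The promoter of Prg4, at chr13:65054226-65054475 on the - strand of GRCr8, is AT-rich (38.8% G and C) and holds a TATA box and a CCAAT box, both on the opposite strand, 25 and 230 bases before the start.
Prg4: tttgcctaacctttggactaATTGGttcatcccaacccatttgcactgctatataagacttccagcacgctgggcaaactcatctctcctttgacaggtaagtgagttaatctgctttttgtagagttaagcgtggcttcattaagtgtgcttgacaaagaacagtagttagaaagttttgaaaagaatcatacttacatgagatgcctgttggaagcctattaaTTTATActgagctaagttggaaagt

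Markers of tendon sheath, synovial lining and adventitial fibroblasts were summed as 1 list. Among the 7D groups their sum was highest in the same 2 mg/kg tendons as Prg4. Mean levels at 7D 2 mg/kg were 811 CPM for Pi16, 511 for Clic5, 318 for Cd34, 254 for Tppp3, 102 for Dpp4 and 32.1 for Creb5. The sum therefore does not measure lining tissue alone. All 6 genes of that list (Pi16, Tppp3, Cd34, Clic5, Dpp4 and Creb5) were measured, and none was at 0. Their summed level was 710 to 1168 CPM at 7D 0 mg/kg, 1504 to 2541 at 7D 2 mg/kg and 746 to 1234 at 7D 6 mg/kg, with 1169 to 1695 in control tendons and 1171 to 1789, 1245 to 2456 and 1219 to 1745 at 21D 0, 2 and 6 mg/kg. Of the 6 genes 2 were called across the 7D doses, Clic5 (adjusted p = 0.000499) and Tppp3 (adjusted p = 0.0492), and 1, Clic5, in 2 against 0 mg/kg (log2 fold change 3.97, SE 0.67, adjusted p = 0.00143). Of all genes 2.05% were called across these doses, and 0.908% higher and 1.45% lower in that pair. Clic5, a chloride channel family gene of lining cells that was singled out after its values were seen, had 14.5, 29.6, 29.7, 31.9 and 56.6 CPM at 7D 0 mg/kg, 153, 365, 749.7 and 774 at 7D 2 mg/kg and 10.8, 35.7 and 77.9 at 7D 6 mg/kg. The tendons at 2 mg/kg were again above all others at 7 days. In control tendons, however, Clic5 had a like level, at 419, 465 and 475 CPM, while the Prg4 levels there were 215 to 1268 CPM. Against control, Pi16 rose in 4 of the 6 groups, Cd34 in 5, Creb5 in 4 and Dpp4 in 3. Tppp3 fell in 3 and Clic5 in 5 (log2 fold changes of -3.80 to 0.17 for Clic5). Over these groups 30.8 to 35.8% of all genes were higher and 33.3 to 35.6% lower. The part of sheath, lining or adventitial tissue in the Prg4 result was not tested. Muscle genes differed between the 7D doses too, with a share of 0.230 to 1.40% of counts at 0 mg/kg, 0.0204 to 0.0244% at 2 mg/kg and 0.0221 to 0.0300% at 6 mg/kg, and their part in the Prg4 result was not tested. Adipocyte genes summed to 615 to 1873 CPM at 7D 0 mg/kg, 1451 to 3543 CPM at 7D 2 mg/kg and 1230 to 3277 CPM at 7D 6 mg/kg. None of the 6 was called across these doses, where 2.05% of all genes were.

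**Figure D4:**
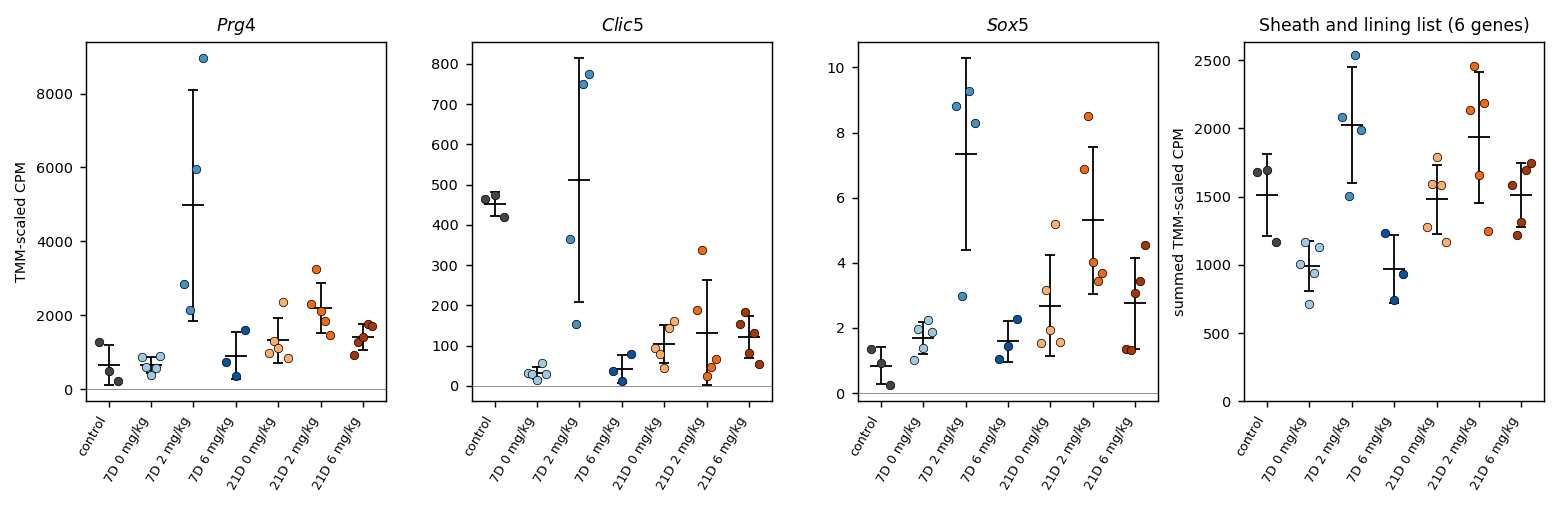
Prg4, Clic5, Sox5 and the sum of the 6 sheath, lining and adventitial fibroblast genes in every tendon, as TMM-scaled CPM on linear axes. Dashes and error bars are group means ± SD. At 7D 2 mg/kg Prg4 (2156 to 8950.3 CPM), Clic5 (153 to 774 CPM) and Sox5 (2.97 to 9.29 CPM) lie above all 7D tendons of the other doses. Sox5 passed the expression filter only through the 2 mg/kg groups.

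Of the other 6 genes tested, Acan had the smallest adjusted p in 2 against 0 mg/kg at 7 days. Its 7D 2 mg/kg tendons had 7.05, 8.74, 11.4 and 13.8 CPM and its 7D 6 mg/kg tendons 11.1, 24.1 and 42.1 CPM, and both overlapped the 11.2 to 102 CPM at 0 mg/kg. The log2 fold change of 2 against 0 mg/kg was -2.22 (SE 0.62, adjusted p = 0.0574), a direction opposite to that of Prg4. Across the 3 doses its adjusted p was 0.143. The pair was called by DESeq2 (adjusted p = 0.00549, and 0.0383 across doses), with the muscle share as a covariate (adjusted p = 0.00261 and 0.00865), and, for the pair, without control replicate 2 or 4, 7D 0 mg/kg replicate 1 or 5, or 21D 0 mg/kg replicate 2 (adjusted p of 0.0222 to 0.0466). Hapln1, in the fit without a filter, was higher at 2 than at 0 mg/kg (log2 fold change 3.34, SE 0.91, adjusted p = 0.0492), with no overlap between the doses, and across the 3 doses its adjusted p was 0.0676. That call was at the edge of the threshold, on 2 to 21 counts per tendon at 0 mg/kg and 21 to 84 at 2 mg/kg. Hapln1 was not part of the other alternative fits or of those that left out 1 tendon. Sox9 at 6 mg/kg lay below all tendons of the other 2 doses at 7 days but was not called (-0.77 against 0 mg/kg, 95% interval -1.42 to -0.13, adjusted p = 0.647). For Cilp the intervals of 2 and 6 against 0 mg/kg at 7 days were -0.55 to 0.41 and -0.60 to 0.45.

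No gene of the 7 was called in any other pair of doses at 7 or 21 days, across the doses at 21 days or in the interaction of dose and time by edgeR. In 6 against 0 mg/kg at 7 days 0.390% of all genes were called, in 6 against 2 mg/kg at 7 days and in every comparison of doses at 21 days 0%, and in the interaction 0.390%. At an unadjusted p under 0.05, 746 and 997 genes passed in these 2 pairs at 7 days, 1366 across the doses at 21 days, 810 to 1751 in the pairs at 21 days and 985 in the interaction. Coch had the smallest p of the group among doses at 21 days, with a log2 fold change of 3.61 for 6 against 0 mg/kg (95% interval 0.86 to 6.36, adjusted p = 0.741), on 0 to 10 counts per tendon at 0 mg/kg.

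From 7 to 21 days Coch and Clec3a fell and Cilp2 rose. Over the mean of the 3 doses 1 of the 7 genes was higher and 2 were lower at 21 days, where 18.9% and 16.8% of all genes were. The changes were -3.99 for Coch (SE 0.73, adjusted p = 0.00015), -2.06 for Clec3a (SE 0.68, adjusted p = 0.0211) and 1.63 for Cilp2 (SE 0.31, adjusted p = 0.000203). The change of Cilp2 was called under every alternative run and without any 1 tendon. Without 21D 6 mg/kg replicate 3 or 7D 6 mg/kg replicate 5 the fall of Coch was -4.63 or -3.32. With the muscle share as a covariate the falls of Coch and Clec3a were -2.25 and -1.01 (adjusted p = 0.359 and 0.716), and that of Clec3a was lost without 7D 0 mg/kg replicate 5 or 7D 2 mg/kg replicate 5 (adjusted p = 0.0583 for each).

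By dose, Coch was lower at 0 mg/kg (-6.16, SE 1.38, adjusted p = 0.0124), which made 1 of 7 genes lower and 0 higher where 2.47% and 2.88% of all genes were. At 2 mg/kg Coch (-4.50, SE 1.28, adjusted p = 0.0207) and Clec3a (-3.68, SE 1.14, adjusted p = 0.0336) were lower and Cilp2 was higher (1.90, SE 0.53, adjusted p = 0.018), against 5.98% and 7.09% of all genes. All 3 calls were lost without 7D 2 mg/kg replicate 5 (adjusted p = 0.0645, 0.188 and 0.0539). That of Cilp2 was also lost without 7D 2 mg/kg replicate 2 (adjusted p = 0.0591), and that of Clec3a without 21D 2 mg/kg replicate 2, 3 or 5 (adjusted p of 0.0678 to 0.0740) and by limma (adjusted p = 0.0875). With the muscle share as a covariate none of the 3 was called (adjusted p = 0.563, 0.462 and 0.067). At 6 mg/kg none of the 7 was called, where 8.54% and 4.55% of all genes were higher and lower, and the changes of Coch and Cilp2 were -1.31 (95% interval -3.76 to 1.14) and 1.56 (0.37 to 2.75). Every 21D tendon of Cilp2 was above every 7D tendon of the same dose at all 3 doses, also at 0 and 6 mg/kg where the change was not called (adjusted p = 0.0743 and 0.0762), and both were called without control replicate 2 (adjusted p = 0.0451 and 0.0444) and by DESeq2 (adjusted p = 0.0314 and 0.0329). Without 21D 0 mg/kg replicate 2 the first was called as well (adjusted p = 0.046), and without 21D 0 mg/kg replicate 3 the second (adjusted p = 0.0491). Without 7D 0 mg/kg replicate 1 the fall of Coch at 0 mg/kg was -4.54. The difference of Prg4 at 2 mg/kg was -1.18 (95% interval -2.13 to -0.24, adjusted p = 0.0878), which DESeq2 called lower (adjusted p = 0.0477), as did edgeR without control replicate 4 (adjusted p = 0.0487). Acan at 2 mg/kg (1.24, adjusted p = 0.178) was called higher with the covariate and in the fit of only the 2 groups (adjusted p = 0.0181 and 0.0288).

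**Figure D5:**
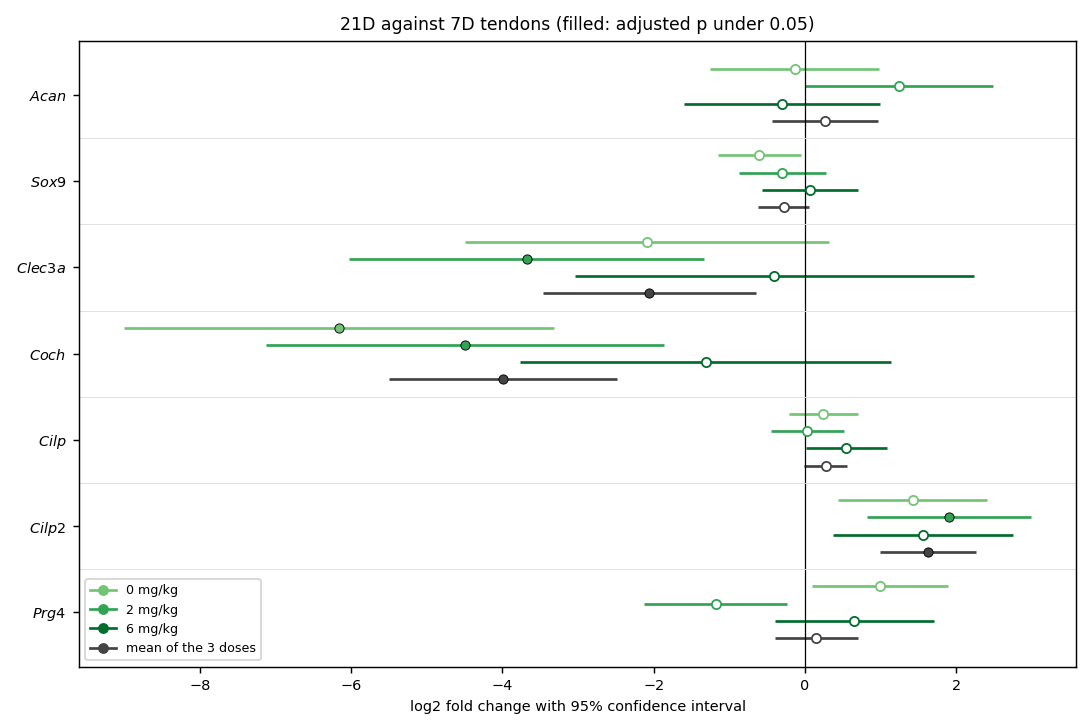
Log2 fold change of the 7 genes tested, 21D against 7D tendons, at each dose and over the mean of the 3 doses, with 95% confidence intervals; filled points have an adjusted p under 0.05. Coch lies at -3.99 and Cilp2 at 1.63 over the mean of the doses, on opposite sides of 0.

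Over the mean of the 3 doses against control, 2 of the 7 genes were higher at 7 days (Cilp, 1.03, and Prg4, 1.13) and 2 lower (Clec3a, -6.11, and Cilp2, -2.81), where 37.6% and 36.6% of all genes were. At 21 days 2 were higher (Cilp, 1.31, and Prg4, 1.29) and 3 lower (Clec3a, -8.17, Coch, -5.51, and Cilp2, -1.18), where 34.5% and 36.3% were. The 7D rise of Prg4 was lost without control replicate 3 or 4, 7D 2 mg/kg replicate 5 or 7D 6 mg/kg replicate 5 (adjusted p of 0.0564 to 0.241) and with the muscle share as a covariate (0.59, adjusted p = 0.66). Its 21D rise was lost without control replicate 3 or 4 (adjusted p = 0.082 and 0.161) and with the covariate (1.06, adjusted p = 0.107). Without control replicate 2 the 7D changes of Clec3a, Cilp2 and Prg4 were -3.69, -1.69 and 1.97, the 21D changes of Clec3a, Coch and Prg4 were -5.75, -4.04 and 2.12, and the 21D fall of Cilp2 was lost (-0.06, adjusted p = 0.918). The latter was also lost with library size only or limma (adjusted p = 0.171 and 0.0847). Sox9 at 7 days (0.62, adjusted p = 0.055) was called in 8 of the 30 fits that left out 1 tendon (adjusted p of 0.0300 to 0.0487), with library size only, without a filter and by limma (adjusted p = 0.000994, 0.0473 and 0.0373). Coch at 7 days (-1.51, adjusted p = 0.155) was called without 7D 0 mg/kg replicate 1 or 7D 6 mg/kg replicate 5 (adjusted p = 0.0385 and 0.0441), and Acan at 21 days (1.16, adjusted p = 0.0899) without control replicate 2, with library size only or by limma (adjusted p = 0.0306, 0.0221 and 0.0451). Acan at 7 days (0.89, adjusted p = 0.186) was called with library size only (adjusted p = 0.0428).

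Other genes of cartilage matrix were called in both directions, at shares near those of all genes. Of 21 genes on that list 12 were measured and 11 tested. Over the 6 comparisons with control 2 or 3 of the 11 were higher and 3 or 4 lower, where 30.8 to 35.8% of all genes were higher and 33.3 to 35.6% lower, so these counts give no result about the list as a whole. The median log2 fold change was -0.20 at 7D 0 mg/kg, against 0.05 over all genes, and -0.70 at 21D 0 mg/kg, against 0.03. Chad, which encodes chondroadherin, fell in all 6 groups (log2 fold changes of -7.61 to -5.74), as did the minor cartilage collagen genes Col11a2 (-5.07 to -3.50) and Col9a1 (-4.64 to -3.03). Col9a1 passed the filter only through control (mean 7.65 CPM, repaired means of 0.30 to 0.95). Matn3, which encodes matrilin-3, rose in all 6 (2.79 to 4.25), and Col11a1, also a collagen XI chain, rose in 4 of 6. Comp, which encodes a matrix protein of cartilage and tendon, was called in none of the 6 (-0.77 to 0.45), and Col2a1, named after its values were seen, was called in none (-2.44 to -0.43). Control replicate 2 was high here as well, with 963 CPM of Chad, where the other controls had 179.9 and 119 CPM. None of the 11 genes was called across doses at 7 or 21 days, where 2.05% and 0% of all genes were, so this is no result about the list.

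Other regulators of cartilage cells were called in both directions as well. Of 16 regulators of cartilage cells 12 were measured and 11 tested, of which 3 to 6 rose and 2 to 4 fell over the 6 groups, where 30.8 to 35.8% of all genes were higher and 33.3 to 35.6% lower. These counts, too, give no result about the list as a whole. The medians were 0.45 at 7D 0 mg/kg, against 0.05 over all genes, and 0.39 at 21D 0 mg/kg, against 0.03. Sox6, which acts with SOX9 in cartilage and is also active in muscle, fell in all 6 groups (-4.84 to -2.04), and so did Mef2c (-4.62 to -1.90), which is used by muscle as well. Runx2 (1.08 to 1.67), Runx3 (1.75 to 3.54) and Pth1r, the parathyroid hormone receptor (0.72 to 1.52), rose in all 6. Runx3 passed the filter only through 7D 0 mg/kg (mean 3.89 CPM). Trps1, a repressor active in growth cartilage, rose in 5 of 6 (0.70 to 1.55), and Nfatc1, a transcription factor, was lower in 1 (-0.45 to -0.15). Sox5, the close relative of Sox6, was the 1 regulator of the 11 tested called across the 7D doses (adjusted p = 0.00705), where 2.05% of all genes were. It had 1.02, 1.40, 1.89, 1.97 and 2.23 CPM with 0 mg/kg, 2.97, 8.29, 8.80 and 9.29 with 2 mg/kg and 1.05, 1.44 and 2.28 with 6 mg/kg. Its change of 2 against 0 mg/kg was 2.10 (SE 0.45, adjusted p = 0.0103). Sox5 passed the filter only through the 2 mg/kg groups, with means of 7.34 CPM at 7D and 5.31 CPM at 21D. The other group means were 0.845 to 2.75 CPM, so its entry into the tests was not independent of its level at 2 mg/kg.

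Most tested genes of the hyaluronan backbone and of aggrecan breakdown were called higher in repaired tendons. Of 14 genes for hyaluronan and its binding partners 8 were measured and 7 tested, and 5 or 6 rose and 0 or 1 fell over the 6 groups, where 30.8 to 35.8% of all genes were higher and 33.3 to 35.6% lower. The medians were 2.39 at 7D and 2.28 at 21D 0 mg/kg. The 1 that fell, at 7D 2, 7D 6 and 21D 2 mg/kg, was the synthase Has3 (-1.18 to -0.41), named after its values were seen. Those higher in all 6 groups included the synthases Has1 (1.33 to 3.39) and Has2 (1.43 to 2.61), the receptor Cd44 (1.98 to 3.57), the large proteoglycan Vcan (1.69 to 2.49) and Tnfaip6 (3.54 to 4.63), whose product modifies hyaluronan. All 10 genes of the aggrecan protease list were tested, and 6 or 7 rose and 0 fell over the 6 groups, against the same shares of all genes (medians 1.21 and 1.27 at 7D and 21D 0 mg/kg). Mmp13 (6.25 to 7.81), Adamts15 (3.88 to 4.41), Adamts4 (2.38 to 4.33), Htra1 (1.22 to 1.61) and Adamts5 (1.13 to 1.45) rose in all 6 groups, while Timp3, which encodes an inhibitor of such proteases, was called higher in 1 (-0.60 to 0.60). Neither list held a gene called across doses at 7 or 21 days, where 2.05% and 0% of all genes were. Adamts1, a protease gene named after its values were seen, was lower in 2 than in 0 mg/kg tendons at 7 days (-0.87, SE 0.23, adjusted p = 0.0387), where 1.45% of all genes were.

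The genes whose group means ran most like each member were found by the root mean square difference between centred mean log2 CPM values over the 7 groups. For Prg4 they were Sema5a, Sox5 and Clca2 (0.257 to 0.334, own SD 0.988), so Sox5 appears here too. For Cilp2 they were Kcnma1, AABR07072853.4 and Dusp8 (0.199 to 0.264, own SD 0.960), for Cilp Zfp354c, AABR07027870.1 and AABR07001910.1 (0.127 to 0.144, own SD 0.476), for Sox9 Rpl17, Pyroxd2 and Tbx3 (0.114 to 0.147, own SD 0.310) and for Acan Srgap3, Arhgap33 and Pitpnm3 (0.237 to 0.303, own SD 0.694). Coch and Clec3a had no near match: the nearest were AABR07048482.1, LOC259244 and Serpinb7 (0.917 to 1.09, own SD 2.13) for Coch and Fmo2, Fam83b and Cck (1.23 to 1.25, own SD 2.58) for Clec3a. Among the 7 members themselves the nearest pair was Cilp and Sox9 (0.470) and the farthest Acan and Clec3a (3.16). These are descriptions over 7 means that share control tendons and scaling.

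Summed levels of adipocyte and endothelial markers overlapped between control and repaired tendons, almost fully for endothelial genes. Macrophage genes (9 of 9 measured) summed to 388 to 1774 CPM in control, 2269 to 5739 CPM at 7 days and 1461 to 7990.3 CPM at 21 days. All 7D tendons thus lay above all controls. Of the 9 macrophage genes 7 to 9 were called higher in the 7D groups, where 34.1 to 35.8% of all genes were. In the 21D groups 4 or 5 were, where 30.8 to 33.8% of all genes were. In no group was 1 called lower. Adipocyte genes (6 of 6) summed to 404 to 1085 CPM in control, 615 to 3543 CPM at 7 days and 286 to 1857 CPM at 21 days. Endothelial genes (5 of 6) summed to 134 to 524 CPM in control and 152 to 649 CPM in repaired tendons. Of 10 bone genes 5 were measured, and they were called in both directions. Their sum was 23.5 to 42.7 CPM in control and 83.9 to 4848 CPM in repaired tendons, with no overlap. Spp1 alone had group means of 433 to 2721 CPM in repaired tendons and 6.66 CPM in control. Mepe, a marker of bone cells, had 3.21 to 24.8 CPM in control, 0 to 0.609 CPM at 7 days and 0.0315 to 9.53 CPM at 21 days when all doses are taken, a fall called in all 6 groups. Dmp1 also fell in all 6 and Alpl in 4, while Spp1 (log2 fold changes of 6.03 to 8.68) and Phex (1.55 to 2.94) rose in all 6. Dmp1 passed the filter only through control (mean 7.29 CPM, repaired means of 0.476 to 1.90), and Phex only through 21D 2 mg/kg. Of 10 tendon genes 9 were measured, of which 0 or 1 rose and 1 to 4 fell over the 6 groups, against the same shares of all genes as above. Mkx, a tendon transcription factor, fell in all 6 groups (-4.10 to -2.42). It passed the filter only through control (mean 5.69 CPM, repaired means of 0.33 to 1.06). Fmod (-1.77 to -0.73) and Kera (-3.09 to -0.96), named after their values were seen, each fell in 5. Thbs4 rose in 3 (0.02 to 1.16), the collagen I gene Col1a1 in 2 (0.45 to 1.14) and the proteoglycan gene Dcn in none (-0.15 to 0.49). The part of these cells in the members' changes was not tested.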

How the data were processed

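RNA from 30 rat plantaris tendons in 7 groups was sequenced. The authors deposited unnormalized counts per gene, made by trimming 50-base single-end reads with fastp, mapping them with STAR to rn6 and counting them in exons of Ensembl release 95. Strand handling and tool versions are not given in the sources used here. A second deposited table holds the authors' fold changes, p-values and average log2 CPM, which were not used. Only its gene identifiers, gene names, chromosomes and gene widths in bases were read.

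Counts were scaled by TMM and fitted with edgeR 4.0.16 in R 4.3.3, using the quasi-likelihood test with 1 mean per group over all 30 tendons, on the 12558 of 13124 genes whose mean reached 3 CPM in any 1 group. The p-values were adjusted over all genes kept by the Benjamini-Hochberg method, and 0.05 was the threshold. Calls of genes that passed the filter only through the groups where they were high are not independent of that filter. The code was tested on simulated data. Groups came from the sample labels. No 2 tendons of a group agreed within sampling noise, the lowest chi-square per gene being 29.6. Likeness was taken over group means of log2 CPM with a prior count of 2.

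The 8 members, the other lists and the tests were chosen with earlier results of these data known. Named from the other lists were the 3 genes with the highest mean CPM and up to 4 more called in all 6 comparisons with control. Exceptions are stated where they occur, except for Sox5, Tnmd and Scx, which were also named outside this rule. Sox5 was in addition among the 3 genes most like Prg4. Alternatives were RLE scaling, library size only, scaling without muscle genes, no filter, DESeq2 1.42.0, limma 3.58.1, the muscle share as a covariate, the replicate number as a block, only the 2 groups compared, and leaving out each tendon.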

Additional observations from a re-analysis of the deposited data

Results flagged for a closer look

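Within the groups of 4 or 5 tendons, 40 sets of levels were searched for a tendon far from the others by Dixon's test, and 3 were found, all the highest of their group. Chance alone gives about 1 in 20. Cilp had 256 CPM in 21D 2 mg/kg replicate 5, and the next tendon of that group had 162 CPM. Cilp2 had 393 CPM in 21D 0 mg/kg replicate 3, where the next had 132 CPM, and 305 CPM in 21D 6 mg/kg replicate 3, where the next had 109 CPM.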

How the results depend on the processing

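Over 147 member results, 9 kinds of alternative gave 1239 values. Of these 1173 stayed on the same side of the threshold, 34 lost a call, 32 gained one and 0 changed sign with a call in either fit. Changes of sign in results called in neither fit were counted as staying. One such was Coch at 7D 0 mg/kg without control replicate 2, which went from -0.91 to 0.54. Leaving out each of the 30 tendons gave 4410 values, of which 4333, 50, 27 and 0 did so. Against control the 12 higher and 14 lower results of 42 became 7 to 13 and 10 to 15 without 1 tendon, the 7 being without control replicate 4. Over the mean of the doses, the 4 higher results of 14 became 8 with library size only and 2 with the muscle share as a covariate. Without 1 tendon they became 2 to 5, and the 5 lower became 4 to 6. From 7 to 21 days by dose, the 1 higher result of 21 became 3 with DESeq2 and 2 with only the 2 groups compared, the 3 lower became 1 with the covariate, and without 1 tendon they became 0 to 3 and 1 to 4. Over the mean of the doses the 2 lower of 7 became 0 with the covariate and 1 to 2 without 1 tendon, while the 1 higher stayed at 1. Members called across doses went from 1 to 2 with DESeq2, the covariate or the replicate block, and stayed at 1 without any 1 tendon. Pairs of doses called went from 1 to 3 with DESeq2, 2 with the covariate and 2 with the block, and were 1 to 2 without 1 tendon. The interaction of dose and time called 0 members throughout. The causes of these shifts were not tested.

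Pairing of tendons by replicate number was not shown. Over 76 pairs with the same number the mean correlation of deviations from the group means was 0.00735 (-0.701 to 0.681), with 29 pairs over 0.1. Over 307 pairs with different numbers it was -0.000524 (-0.673 to 0.779), with 89 pairs over 0.1. Of 30 tendons 6 correlated best with their own number. Means near 0 over such wide ranges cannot exclude a batch shared by number. With the replicate block 15 results against control were higher and 13 lower, 5 and 5 over the mean of the doses, 1 and 2 from 7 to 21 days by dose and 1 and 1 over the mean of the doses, and 0 in the interaction. With the block the 7D rise of Prg4 over the mean of the doses was not called (adjusted p = 0.0813), nor was the fall of Cilp2 at 21D 2 mg/kg (0.0556) or the falls of Clec3a from 7 to 21 days at 2 mg/kg (0.131) and over the mean of the doses (0.0752), while Acan over the mean of the doses was called at 7 and 21 days (0.0153 and 0.00670), and so was Acan at 7 days in 2 against 0 mg/kg (0.0196) and across the 3 doses (0.0432). Acan against control was also called at 7D 6, 21D 2 and 21D 6 mg/kg (0.00686, 0.0232 and 0.0389). Scaling by library size only moved the median log2 fold change of all genes against control to 0.51 to 0.64, and the share of calls that were higher at 7D 0 mg/kg from 50.1% to 75.6%. On that scale Sox9 was called higher in 5 of the 6 groups, all but 7D 6 mg/kg. Counts under 10 in Coch, Clec3a and Hapln1 limit what the depth can show at 21 days.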

Other observations

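Genes shared by bone and mineralizing cartilage moved in both directions against control. Spp1, which encodes osteopontin and is also made by macrophages, rose in all 6 repaired groups (log2 fold changes of 6.03 to 8.68), and so did Phex (1.55 to 2.94), a peptidase gene of bone cells. Dmp1 (-3.95 to -1.94) and Mepe (-9.08 to -2.20), which encode matrix phosphoproteins of bone, fell in all 6, and Alpl, the alkaline phosphatase gene, fell in 4 (-2.21 to -1.02). Dmp1 passed the expression filter only through control, and Phex only through 21D 2 mg/kg. None of these 5 genes was called across doses at 7 or 21 days, where 2.05% and 0% of all genes were.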
